A study of Mus musculus with 12 samples.

Results

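The genes of polyamine synthesis and catabolism were compared between the prostates of mice with both copies of a targeted gene (+/+, called wild-type) and mice homozygous for its loss (-/-, called null). The 10 genes were chosen by name: Arg2, Odc1, Azin1, Oaz1, Oaz2, Srm, Sms, Smox, Sat1 and Paox. Of these 10, 9 had a row among the 23284 genes of the table and 8 were among the 15096 genes tested. Oaz1 lay at the level of undetected genes, and Oaz2 was not among the rows analysed here. Whole prostate tissue was taken at 4 months of age and frozen, and messenger RNA was enriched through its poly-A tail and sequenced. There were 6 wild-type and 6 null libraries. Both genotypes were on a mixed background of 129/SvImJ and C57Bl/6J. The labels describe no treatment and do not say how the allele was made or whether each library came from a separate animal, and p-values therefore measure how much these libraries vary, which may be technical.

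Putrescine, spermidine and spermine are small positively charged molecules that bind nucleic acids and are needed for growth, and the prostate is known for making large amounts of them and secreting spermine into its fluid. Arginase (Arg2) turns arginine into ornithine, and ornithine decarboxylase (Odc1) turns ornithine into putrescine, the step at which synthesis is mainly controlled. Antizymes (Oaz1, Oaz2) bind the decarboxylase and send it to the proteasome, and the antizyme inhibitor (Azin1), a relative of the decarboxylase without its activity, occupies antizyme and spares the enzyme. Spermidine synthase (Srm) and spermine synthase (Sms) then add aminopropyl groups taken from decarboxylated S-adenosylmethionine. In the other direction, spermine oxidase (Smox) takes spermine straight back to spermidine, whereas the acetyltransferase Sat1 marks spermidine and spermine for export or for oxidation by Paox.

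The antizyme messages carry the best known regulatory sequence of the pathway: polyamines make ribosomes slip forward by a base at an early stop codon, and only then is whole antizyme made. The mouse Oaz1 transcript Oaz1-205 of GENCODE M21 holds that site, shown because it is where polyamine level is read. The 3 capitals are the stop codon, which 28 whole codons of the transcript precede, and 151 codons free of stops follow in the frame shifted by 1 base.
Oaz1: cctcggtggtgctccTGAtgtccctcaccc

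Promoters of the genes whose levels moved in opposite directions are shown for Odc1 and Sms, which were lower in null prostate, and Smox, which was higher. Each is the 250 bases before a transcription start in RefSeq for GRCm38.p6, printed 5′ to 3′ on the strand of the gene. Capitals mark GGGCGG or its reverse complement CCGCCC, the core of a GC box, and CACGTG, the core E-box.
Odc1, chr12:17544623-17544872 (+ strand): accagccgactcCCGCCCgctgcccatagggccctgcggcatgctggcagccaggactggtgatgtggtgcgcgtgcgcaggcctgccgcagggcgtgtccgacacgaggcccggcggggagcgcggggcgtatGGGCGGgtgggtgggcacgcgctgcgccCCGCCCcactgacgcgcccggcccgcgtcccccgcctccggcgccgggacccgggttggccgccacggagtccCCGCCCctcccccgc
Smox, chr2:131491612-131491861 (+ strand): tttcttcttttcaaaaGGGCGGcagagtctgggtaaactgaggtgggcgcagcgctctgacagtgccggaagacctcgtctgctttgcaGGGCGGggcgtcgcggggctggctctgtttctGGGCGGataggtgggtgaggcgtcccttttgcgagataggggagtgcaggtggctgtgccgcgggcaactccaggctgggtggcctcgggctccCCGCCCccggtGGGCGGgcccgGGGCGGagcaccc
Sms, chrX:157492288-157492537 (- strand): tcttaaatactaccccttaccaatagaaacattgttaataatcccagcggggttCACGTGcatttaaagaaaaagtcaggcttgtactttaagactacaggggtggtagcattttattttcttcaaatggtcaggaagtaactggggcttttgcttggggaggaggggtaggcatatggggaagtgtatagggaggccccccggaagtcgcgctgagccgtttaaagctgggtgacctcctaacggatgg
The window of Odc1 was 80% G and C and held 4 GC-box cores, and that of Smox was 68% and held 6. The Sms window was 47.2% and held 0 GC-box cores and 1 E-box core. A downstream start of Sms, with the window chrX:157491369-157491618 (- strand), was 75.2% G and C and held 4 GC-box cores. Among 7 of the genes with a RefSeq window, 6 (Oaz2, Odc1, Paox, Sat1, Smox and Sms) held a GC-box core before at least 1 start, beside 32.7% of 32851 promoter windows of the same length, and only Sms held the E-box core, beside 6.02%. TATAAA, the TATA-box core, was in 0 of these 7 and in 12.4% of all windows. The genes were counted over all their starts and the windows singly. Paox and Sms have 2 starts each, and Sms held the GC-box core only before its downstream start. The shares of genes and of windows are therefore not like for like. The median window was 52.4% G and C. The motifs were searched on both strands, neighbouring matches may share bases, and a match is a run of letters only. The GC-box core stood before Smox, which rose, before Odc1, Sat1 and Sms, which fell, and before Paox, which did not pass the test. Azin1, Srm and Arg2 are named here without a promoter.

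All levels below are on the log2 scale on which they were deposited, so a difference of 1 is a doubling. Values of different genes are not corrected for transcript length, so levels are compared between libraries and not between genes. Undetected genes scattered around a median of 2.85, and of the 1101 olfactory receptor genes behind this median 95% lay below 3.50. The libraries of each genotype fell into 2 sets of 3 (wild-type 1 to 3 and 4 to 6, null 1, 2 and 5 and null 3, 4 and 6). The median absolute difference over 3633 well expressed genes was 0.056 and 0.066 within a wild-type and a null set, 0.11 and 0.14 across the sets of a genotype, and 0.23 between genotypes. The sets were chosen on the same genes, so the smaller differences within them are partly built in. Whether libraries of a set are independent is not known, and tests with limma are given over the 12 libraries and over the 4 set means, 2 against 2. Over 12 libraries 53.1% of tested genes were called at an adjusted p under 0.05, 28% as higher in null prostate and 25.1% as lower. Over set means 14.5% were called, and for 32.6% of tested genes the libraries of the genotypes did not overlap.

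The polyamine genes moved in both directions in null prostate. Azin1 and Smox rose, Arg2, Odc1, Sms and Sat1 fell, and Srm and Paox did not pass the test. Thus 6 of the 8 tested genes passed over 12 libraries. The set means gave 5, without Arg2, and the libraries of the genotypes did not overlap for 5. The median difference of the 8 was -0.29, from -1.19 to 2.17, beside 0.012 over all tested genes. Because the tissue was sequenced whole, fewer cells of a type and less RNA per cell cannot be told apart.

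**Figure D1:**
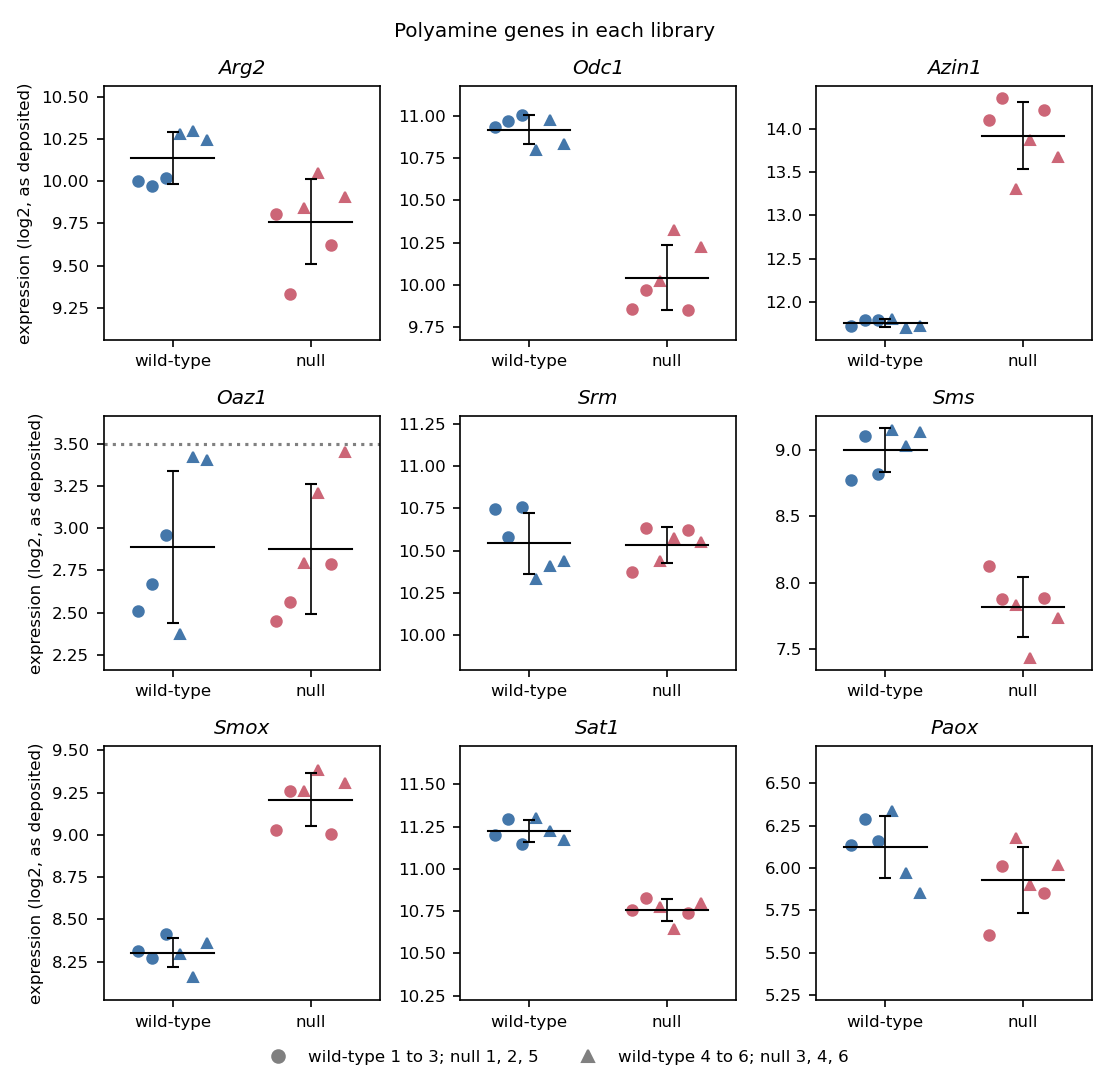
Level of each polyamine gene (log2, as deposited) in the 6 wild-type and 6 null libraries, in pathway order; each point is a library, its shape gives its set, horizontal lines are group means and bars are ± 1 SD. The dotted line for Oaz1 marks 3.50, the 95th percentile of undetected genes, and Azin1 and Smox lie higher and Odc1, Sms and Sat1 lower in all 6 null libraries.

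At the entry to the pathway, Arg2, the mitochondrial arginase, had wild-type levels from 9.97 to 10.30 with a median of 10.13. In null libraries it ran from 9.33 to 10.05 with a median of 9.83. The groups overlapped, since null library 4 stood above wild-type libraries 1 to 3. Arg2 fell by 0.38 (SE 0.107, 95% interval -0.61 to -0.15, limma adjusted p = 0.00912 over 12 libraries), a 1.30-fold decrease, but the set means left it uncalled (adjusted p = 0.165). The sets of a genotype differed nearly as much: wild-type 4 to 6 lay 0.28 above wild-type 1 to 3, and null 3, 4 and 6 lay 0.35 above null 1, 2 and 5. Without wild-type 4 to 6 the difference was -0.24 (adjusted p = 0.159), and without null 1, 2 and 5 it was -0.20 (adjusted p = 0.0630). In GENCODE M21, 17.1% of the 50-base stretches of Arg2 are shared with Vti1b, a vesicle fusion gene that overlaps its end on the other strand, and Vti1b itself fell by 0.21 (adjusted p = 0.00062 over 12 libraries, 0.197 over set means). No use of strand in counting is given in the sources used here, so reads of this overlap cannot be told apart.

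Odc1, the enzyme that makes putrescine, stood between 10.80 and 11.00 in wild-type libraries, with a median of 10.95. In null libraries it stood between 9.85 and 10.32, with a median of 9.997. Every null library lay below every wild-type library. The mean fell by 0.88, from 10.92 ± 0.085 to 10.04 ± 0.19 (SD, n = 6 each), a 1.84-fold decrease (SE 0.0784, limma adjusted p = 4.16e-07, and 0.0127 over set means). Of all tested genes, 9.29% differed by more. Null libraries 4 and 6 (10.32 and 10.23) were the least lowered, and the difference between a null set and a wild-type set ran from -1.07 to -0.68 over the 4 pairs of sets. Copies of Odc1 are scattered through the genome: 42.2% of its 50-base stretches occur in transcripts of 16 other genes, the largest share (20.3%) in Gm7993, so the share of reads assigned to Odc1 is uncertain.

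Azin1, which protects the decarboxylase from antizyme, moved the other way. It was nearly constant among wild-type libraries, from 11.69 to 11.80 with a median of 11.76, and ran from 13.31 to 14.36 with a median of 13.99 in null libraries. The gap between the groups was wider than the spread within either. Azin1 rose by 2.17 (SE 0.143, 95% interval 1.86 to 2.48), a 4.51-fold increase, with limma adjusted p = 4.72e-08 over 12 libraries and 0.00547 over set means. Only 1.49% of tested genes differed by more, which places Azin1 at rank 226 of 15096. The null sets differed from each other: null 1, 2 and 5 held 14.11, 14.36 and 14.22, and null 3, 4 and 6 held 13.31, 13.87 and 13.68. Only 6.01% of its 50-base stretches are shared, all with the antisense gene Gm49077.

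Some transcripts of seminal vesicle secretion followed the same sets, and most of those listed did not. Svs1, Svs2 and Svs5 averaged higher in null 1, 2 and 5 than in null 3, 4 and 6, as Azin1 did. Svs3a, Svs3b, Svs4, Svs6, Ceacam10 and Sva averaged lower in null 1, 2 and 5, for example Sva at 10.39 against 11.76. These lower averages came from null 1 alone, the lowest null library for each of these genes, while null 2 was the highest. Sva was at 7.2, 12.4 and 11.5 in null 1, 2 and 5 and at 11.3, 12.1 and 11.8 in null 3, 4 and 6. The averages of these genes therefore do not show an opposite pattern of the sets. Svs2, a seminal vesicle secretory protein, was at 17.86, 19.36 and 18.86 in null 1, 2 and 5 and at 11.62, 12.56 and 12.13 in null 3, 4 and 6. Of 9 seminal vesicle markers, 8 were tested and all 8 rose over 12 libraries. Over set means 6 passed, and Svs2 (limma adjusted p = 0.358) and Svs5 (0.122) did not. Both counts include Svs3a, Svs3b, Svs6 and Sva, which were below 4 in all wild-type libraries. These entered the test only through high null values, so a rise was the only outcome open to them. Svs1, also below 4 in all wild-type libraries and high in only some null libraries, was not tested. The summed level of the list was 8.02 to 11.7 in wild-type and 16.8 to 20.3 in null libraries, and Svs1, Svs3a, Svs3b, Svs6 and Sva averaged at the level of undetected genes in wild-type libraries. Without null 1, 2 and 5, Azin1 was still higher by 1.87 (limma adjusted p = 2.69e-08), and without null 3, 4 and 6 it was higher by 2.48 (adjusted p = 5.86e-11). Among wild-type libraries Svs2 ranged over 11.16 to 11.26 in libraries 1 to 3 but was only 4.52 to 4.81 in the set of libraries 4 to 6, while the Azin1 means of these sets differed by 0.027. Svs4, another secretory protein of this gland, was high in both null sets, from 12.38 to 18.20, against 3.75 to 5.52 in wild-type libraries. The part of these transcripts in the difference between genotypes was not tested.

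The antizymes could hardly be read in these data. Oaz1 is listed at 2.38 to 3.42 in wild-type and at 2.45 to 3.45 in null libraries, within the range of undetected genes in all 12, and was not tested. In GENCODE M21, 45.5% of its 50-base stretches are shared with Oaz1-ps, a processed copy. Other genes that cells express widely were also listed low, Gapdh at 5.02 to 5.67 and Ppia at 5.94 to 6.42 over both genotypes, with 58.4% and 32.4% of their 50-base stretches shared with other genes. Actb (13.11 to 13.86), Eef2 (16.18 to 16.40) and Rplp0 (14.07 to 14.38) were listed high, with 12.2%, 7.86% and 34.5% shared. These 5 were chosen after their values were seen. The cause of the low values was not tested, and the value of Oaz1 is not read here as absence of the message. A row named Oaz2-ps, which is a synonym of Oaz2 in RefSeq and a separate processed copy in GENCODE, stood at 9.90 to 10.01 in wild-type and 9.79 to 9.99 in null libraries. Its difference of -0.082 did not pass (limma adjusted p = 0.115), and it is not assigned to Oaz2.

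Srm, which makes spermidine, showed no difference that could be told from the spread. Its wild-type levels ran from 10.33 to 10.76 with a median of 10.51, and its null levels from 10.37 to 10.63 with a median of 10.56. The null range lay inside the wild-type range. The difference was -0.012 with a 95% interval of -0.18 to 0.15 over 12 libraries (limma adjusted p = 0.910) and of -0.32 to 0.30 over set means (adjusted p = 0.958). Within wild-type prostate, libraries 4 to 6 lay 0.30 below libraries 1 to 3.

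Sms, the next enzyme, which makes spermine, had the largest decrease of the 8 tested genes. It stood at 8.77 to 9.15 in wild-type libraries, with a median of 9.07, and at 7.43 to 8.13 in null libraries, with a median of 7.86. No null library reached the wild-type range. Sms fell by 1.19 (SE 0.104, 95% interval -1.41 to -0.96), a 2.27-fold decrease, with limma adjusted p = 3.52e-07 over 12 libraries and 0.00891 over set means. Of all tested genes, 5.17% differed by more. Of its 50-base stretches, 28.1% are shared with the processed copy Sms-ps and 5 other genes.

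Smox, which turns spermine back into spermidine, rose while Sms fell. Its wild-type levels were 8.16 to 8.42 with a median of 8.31, and its null levels 9.01 to 9.39 with a median of 9.26. All 6 null libraries were above all 6 wild-type libraries. The increase was 0.90 (SE 0.0712, 95% interval 0.75 to 1.06), or 1.87-fold, with limma adjusted p = 1.14e-07 over 12 libraries and 0.00958 over set means. Of all tested genes, 8.71% differed by more. None of its 50-base stretches (0%) occurs in another gene.

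Sat1, the acetyltransferase that starts the other route of breakdown, had levels of 11.14 to 11.30 in wild-type libraries (median 11.21). In null libraries the levels were 10.65 to 10.83 (median 10.77). The groups did not overlap and both were narrow, with SDs of 0.065 and 0.063 (n = 6 each). Sat1 fell by 0.47 (SE 0.0433, limma adjusted p = 5.93e-07, and 0.0252 over set means), a 1.38-fold decrease. The 4 pairs of sets gave nearly the same value, from -0.49 to -0.44. A decrease of this size is common here, since 25.6% of tested genes differed by more.

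Paox, which oxidises the acetylated products, was at 5.85 to 6.34 in wild-type libraries (median 6.15) and 5.60 to 6.18 in null libraries (median 5.96). The groups overlapped widely. Its difference of -0.19 (95% interval -0.45 to 0.058) did not pass (limma adjusted p = 0.182, and 0.525 over set means). Of its 50-base stretches, 29% are shared, most of them (25.7%) with Gm19680.

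In the exact two-sided permutation test of each gene over the 924 divisions of the 12 libraries, Odc1, Azin1, Sms, Smox and Sat1 reached p = 0.00216, the smallest that it can give. Arg2 had exact permutation p = 0.00866, Paox 0.110 and Srm 0.903.

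**Figure D2:**
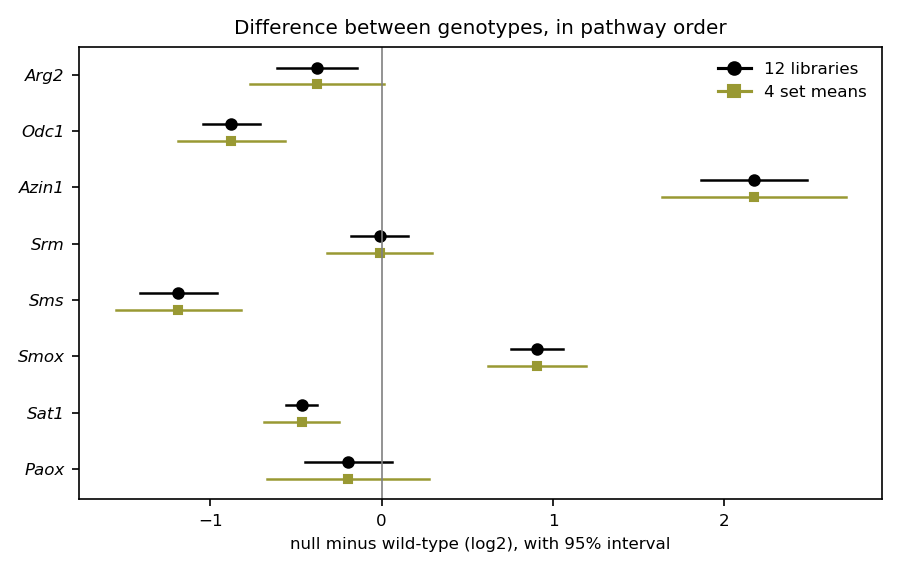
Difference between genotypes (null minus wild-type, log2) for the 8 tested polyamine genes from arginine at the top to breakdown at the bottom, with 95% intervals over 12 libraries (circles) and over 4 set means (squares). Azin1 at 2.17 and Smox at 0.90 lie right of 0, Sms, Odc1 and Sat1 lie left of 0 with both intervals, and the set-mean interval of Arg2 reaches 0.015.

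The difference between 2 genes within a library shows how their balance varied. Such differences contain the unequal lengths of the transcripts, so only their change between genotypes is read, and they are descriptions with no test. Azin1 minus Odc1 was 0.83 ± 0.10 in wild-type libraries (SD, n = 6, from 0.72 to 1.002) and 3.88 ± 0.51 in null libraries (from 3.28 to 4.40). The balance of inhibitor to decarboxylase transcripts thus differed by 3.05, or 8.27-fold. In null 1, 2 and 5 it was 4.25, 4.40 and 4.37, and in null 3, 4 and 6 it was 3.28, 3.54 and 3.45. Smox minus Sms was -0.70 ± 0.21 in wild-type libraries (from -0.87 to -0.41) and 1.39 ± 0.36 in null libraries (from 0.90 to 1.95). Spermine oxidase transcripts thus gained 2.09, or 4.26-fold, on those of spermine synthase. Srm minus Sms, the spermidine-making against the spermine-making enzyme, went from 1.54 ± 0.34 to 2.72 ± 0.29, with no overlap between the groups (1.18 to 1.97 against 2.24 to 3.14). This change of 1.17 repeats the decrease of Sms (-1.19), since Srm itself differed by only -0.012, and is not a further result. Sat1 minus Paox went from 5.10 ± 0.15 to 4.83 ± 0.19, and its ranges overlapped (4.97 to 5.32 against 4.60 to 5.15).

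**Figure D3:**
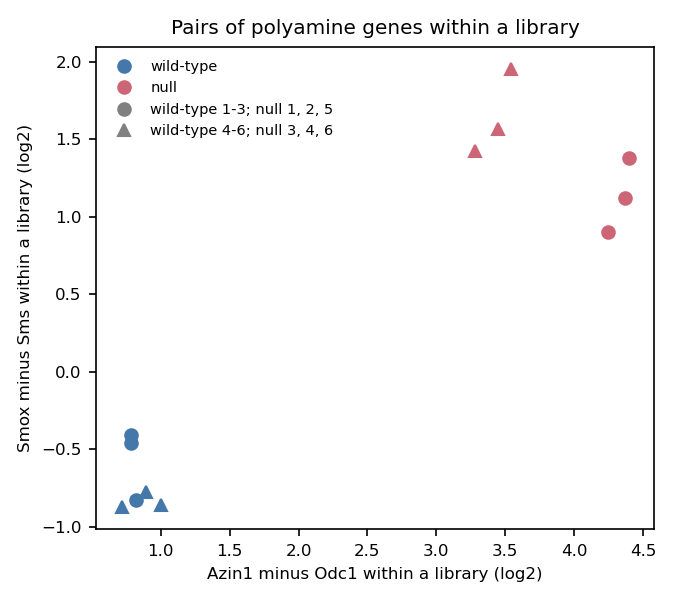
Azin1 minus Odc1 (horizontal) against Smox minus Sms (vertical) within each library, both in log2 units; blue points are wild-type and red points null libraries, and shapes give the sets. Wild-type libraries lie at 0.72 to 1.002 and -0.87 to -0.41, null libraries at 3.28 to 4.40 and 0.90 to 1.95, and null 1, 2 and 5 stand to the right of null 3, 4 and 6.

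Of 41 further genes around the pathway, 34 were tested, of which 4 rose, 17 fell and 13 were not called over 12 libraries. Over set means 4 rose and 9 fell. The shares over all tested genes were 53.1% called over 12 libraries (28% higher, 25.1% lower) and 14.5% over set means. They belong beside the counts of each list that follows. The median difference of the 34 was -0.21, beside 0.012 over all tested genes.

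Of 8 tested genes of arginine and ornithine supply, 6 were called, 2 as higher and 4 as lower. Their median difference was -0.31. Both genes that rose encode carriers that bring arginine into the cell. Slc7a2 rose by 1.78, from 6.59 ± 0.14 to 8.37 ± 0.55 (SD, n = 6 each; limma adjusted p = 8.46e-06, and 0.0272 over set means). Slc7a1 rose by 0.66, from 11.64 ± 0.10 to 12.30 ± 0.14 (adjusted p = 1.74e-06, and 0.0237). The 4 genes that fell encode enzymes. Arg1, the cytosolic arginase that in tissues is also known from macrophages, fell by 2.30, from 6.63 ± 0.16 to 4.33 ± 0.32 (adjusted p = 1.48e-08, and 0.00477). Asl, which releases arginine in the urea cycle, fell by 0.72 (adjusted p = 7.20e-08, and 0.0134 over set means). Aldh18a1, which starts proline and ornithine synthesis from glutamate, fell by 0.60 with adjusted p = 2.14e-05. Ass1 fell by 0.52 over 12 libraries (adjusted p = 0.00266) but had 0.114 over set means. Oat, which turns ornithine towards glutamate, differed by -0.089 and was not called. Otc and Agmat were not tested.

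Beside Arg1, 6 of 7 tested macrophage markers fell, among them C1qb, a complement subunit, from 9.61 to 8.23, and C1qa, its partner, from 9.56 to 8.27. The summed level of the macrophage list was 11.3 to 12.1 in wild-type and 10.5 to 10.9 in null libraries, with no marker at the level of undetected genes. Over set means 1 of the 7 passed. C1qa averaged 10.07 in wild-type 1 to 3 and 9.06 in wild-type 4 to 6, and C1qb averaged 10.07 and 9.14. Arg1 averaged 6.75 and 6.52 in these sets. Cd163, the marker that was not called, lay the other way, at 6.83 and 7.06. The part of these cells in the fall of Arg1 was not tested.

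Among the 4 tested genes of S-adenosylmethionine supply, 2 fell and 2 were not called. Mat2a, the main methionine adenosyltransferase outside the liver, fell by 0.94, from 14.13 ± 0.087 to 13.19 ± 0.22 (SD, n = 6 each; limma adjusted p = 6.77e-07, and 0.0212 over set means). Mat1a, its liver form, fell by 1.45 from a low level of 4.75 ± 0.11 to 3.30 ± 0.53, which is within the range of undetected genes and limits how far a decrease could be read. Mat2b, a regulatory subunit, and Ahcy, which clears S-adenosylhomocysteine, were not called. Amd1 and Amd2, which decarboxylate S-adenosylmethionine to the aminopropyl donor, are listed at 2.56 to 3.56 and 2.67 to 3.19 over both genotypes, at or about the level of undetected genes. They were not tested, and 84.4% of the 50-base stretches of Amd1 are shared with Amd2.

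Methylthioadenosine is the by-product of both aminopropyl transfers, and a salvage route returns it to methionine. Of its 5 tested genes, 3 fell and 2 were not called over 12 libraries, and 1 fell over set means. Adi1, the dioxygenase of this route, fell by 1.17, from 11.28 ± 0.043 to 10.11 ± 0.085 (SD, n = 6 each; limma adjusted p = 6.65e-11, and 0.00282 over set means). Enoph1 and Apip, which act just before it, fell by 0.30 and 0.32 over 12 libraries, with adjusted p = 0.105 and 0.15 over set means. Mtap, which opens the route, differed by 0.19 and was not called (adjusted p = 0.0577).

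Of the other relatives of the antizyme and acetyltransferase genes, 3 were tested, of which 2 fell and 1 was not called. Azin2, the second antizyme inhibitor, fell by 0.94, from 6.68 ± 0.23 to 5.74 ± 0.29 (SD, n = 6 each; limma adjusted p = 8.80e-05, and 0.0283 over set means), in the opposite direction to Azin1. Oaz3, an antizyme known from testis, fell by 0.71, from 5.08 ± 0.41 to 4.37 ± 0.50 (adjusted p = 0.0214, and 0.240 over set means). These levels are low, but all 12 libraries lay above 3.50, the 95th percentile of undetected genes. Sat2 was not called, and Satl1 and Aoc1 were not tested.

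Polyamine transport had 8 tested genes and a median difference of 0.20; 2 rose, 2 fell and 4 were not called. Atp13a3, a pump that helps cells take up polyamines, rose 1.999-fold, from 11.63 ± 0.10 to 12.63 ± 0.24 (SD, n = 6 each; limma adjusted p = 7.94e-07, and 0.0158 over set means). Slc3a2, the heavy chain of several amino acid carriers, fell by 0.26, and Slc47a1, an organic cation exporter, fell by 0.60 from a low level of 4.34 ± 0.29. Neither passed over set means (adjusted p = 0.129 and 0.152).

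Spermidine is also used to modify the translation factor eIF5A with hypusine. Of 4 tested genes, 2 fell and 2 were not called. Dhps, which transfers the group from spermidine, fell by 0.44 (limma adjusted p = 9.37e-05, and 0.0466 over set means). Eif5a fell by 0.28 over 12 libraries, with adjusted p = 0.188 over set means, and Eif5a2 and Dohh were not called.

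Both listed partners of polyamines in prostatic fluid fell. Sbp, the spermine-binding protein, stood at 19.00 to 19.23 in wild-type and dropped to 3.13 to 5.06 in null libraries. Its null mean of 4.07 was low but above 3.50, the 95th percentile of undetected genes. Tgm4, the prostate transglutaminase that joins proteins to each other and to polyamines, was at 19.47 to 19.67 in wild-type and 19.00 to 19.48 in null libraries. Its groups overlapped, and its decrease of 0.39 was called over 12 libraries (limma adjusted p = 0.00291) and not over set means (0.285).

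**Figure D4:**
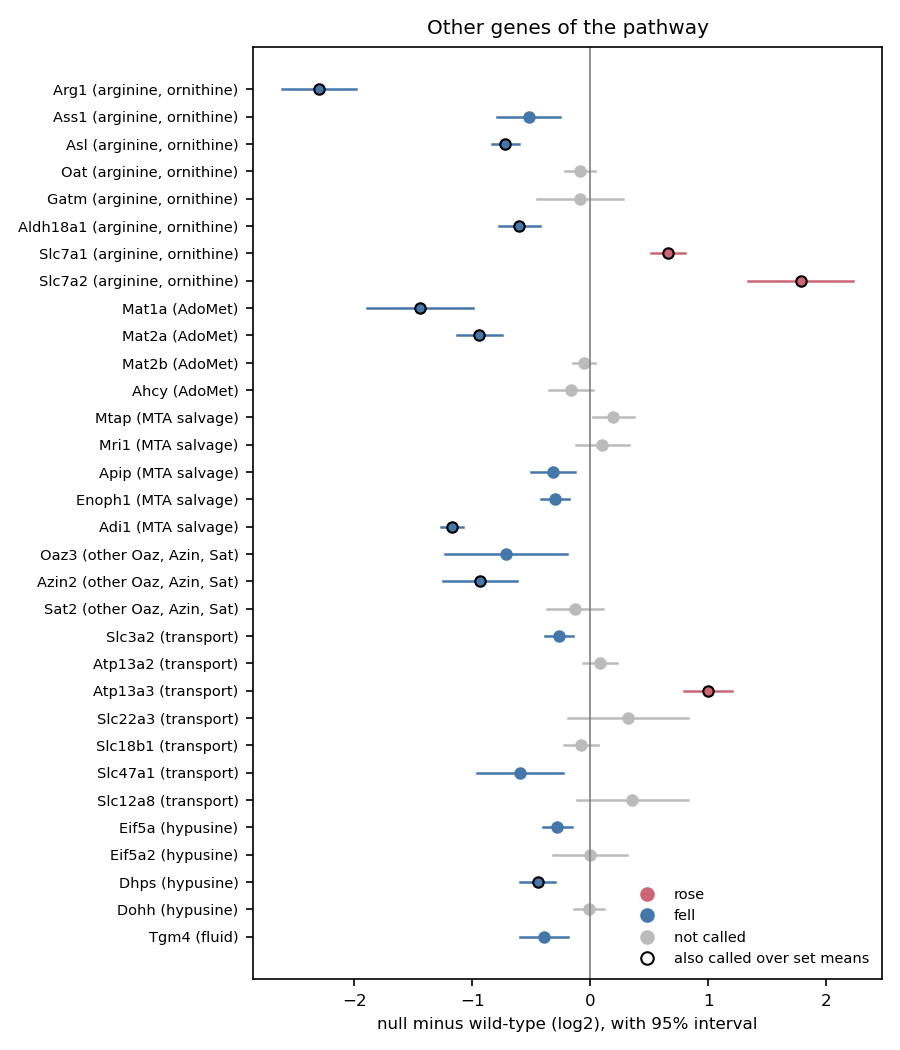
Difference between genotypes (null minus wild-type, log2, with 95% intervals over 12 libraries) for 32 of the 34 tested genes around the pathway, grouped by role; red points rose, blue points fell, grey points were not called, and black rings mark genes also called over set means. Sbp, at -15.04, is off the scale and not drawn, and 1 further gene is left out; Arg1 at -2.30 and Slc7a2 at 1.78 are the ends of the drawn range.

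Defining transcripts of prostate secretion were high in wild-type libraries and fell to unequal degrees in null libraries. Pbsn, the androgen-dependent secretory protein probasin, was at 17.90 to 18.06 in wild-type and 15.64 to 16.14 in null libraries. Msmb, which encodes beta-microseminoprotein, fell from a mean of 15.26 to 9.64, and Spink3, a trypsin inhibitor, fell from 17.73 to 13.73. Sbp fell to a null mean of 4.07, low but above 3.50 as given above. Of the 5 tested prostate secretory markers, all 5 fell over 12 libraries and 4 over set means. The summed level of the list was 20.7 to 20.9 in wild-type and 19.2 to 19.6 in null libraries, close to the 19.00 to 19.48 of Tgm4 alone. Markers of other cell types also moved. Of 6 luminal epithelial markers, 3 rose and 3 fell (1 and 1 over set means), with summed levels of 15.7 to 16.0 and 15.6 to 16.0. Of 5 basal epithelial markers, 4 rose and 2 did over set means (11.4 to 11.6 against 11.8 to 12.3). Of 3 tested urothelial markers, 2 rose in both fits (12.5 to 12.8 against 13.2 to 14.4). Of 4 adipocyte markers, 3 rose and 1 did over set means (5.95 to 7.68 against 6.03 to 9.82), and none of the 4 separated the genotypes without overlap. Of 6 lymphocyte markers, 4 fell and 2 did over set means (8.01 to 9.11 against 7.37 to 7.63). Of 5 smooth muscle markers, 5 were not called, of 5 fibroblast markers 1 fell (0 over set means), and of 4 endothelial markers 1 fell in both fits. Of 3 tested skeletal muscle markers, 1 rose and 1 fell, and over set means 1 fell. Azin1, Odc1, Sms, Smox and Sat1 were each measured in the whole mixture, and the part of these cell types in their differences was not tested.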

How the data were processed

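RNA of 12 mouse prostate libraries, 6 per genotype, was selected for poly-A and prepared with an Illumina TruSeq kit, as the labels describe. DESeq, Cufflinks 2.0.2, TopHat2 2.0.4 and CASAVA 1.8.2, and the build mm9, are listed without roles in the submitters' processing notes. The authors deposited a single table of values on a log2 scale. The transformation and the handling of reads that match several genes are not given in the sources used here. As the table has no counts, the depth is unknown.

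The deposited log2 values were tested in R 4.3.3 with limma 3.58.1 (mean-variance trend, robust moderation, Benjamini-Hochberg adjustment over all tested genes, threshold 0.05, genotype the only term). A gene was tested if 6 or more libraries held a value of 4 or more, and no pseudocount was added. Intervals are at 95%. Set means were fitted in the same way. Each genotype's 6 libraries were divided into triplets by how closely a library resembled an equal mix of the other members. The mix was taken on the linear scale, over genes whose mean was 10 or more. Only the library nearest to such a mix counted in each triplet. The fit was tried on simulated data in which every library was drawn independently, without sets. That trial cannot show how the fit behaves where libraries of a set resemble each other.

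The text names all 10 genes, up to 4 called genes of each pathway list by adjusted p (the 2 of highest mean where fewer than 2 were called) and the 2 markers of highest mean of a list that moves with a member. Genes named beyond this rule were chosen after their values were seen. The members, lists and tests were chosen with earlier results of these data known. A pathway gene within this rule, the targeted gene's own level and the planned difference of Azin1 and Oaz1 are not reported here, the last because Oaz1 lay at the level of undetected genes. Transcript stretches of 50 bases were compared over GENCODE M21 protein-coding transcripts of the named genes and all other transcripts. Promoters are RefSeq entries. Alternatives were other scalings, filters, spread models and thresholds, a random block per set, and each library or set left out.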

Additional observations from a re-analysis of the deposited data

Results flagged for a closer look

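In 43 genes of the pathway, 86 groups of 6 libraries were searched for a library far from the others, and 4 were found, where chance gives about 1 in 20. Mat2b was at 11.01 in wild-type library 4 and at 10.88 to 10.91 in the other wild-type libraries. Ahcy was at 7.77 in wild-type library 3 and at 7.31 to 7.43 in the others. Azin2 was at 7.12 in wild-type library 2 and at 6.52 to 6.69 in the others. Atp13a2, an endosomal polyamine pump, was at 10.73 in wild-type library 2 and at 10.92 to 11.04 in the others. None of the 9 chosen genes with a row was among these 4, and Azin2 is the only one of the 4 that was called.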

How the results depend on the processing

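Of the 8 tested polyamine genes, 6 were called over 12 libraries and 4 to 6 under the 25 alternatives; the 4 came from a test against a 1.5-fold change and were Azin1, Odc1, Sms and Smox. These 4 kept their direction and their call under 26 alternatives each, with differences of 1.87 to 2.48, -1.02 to -0.73, -1.33 to -1.04 and 0.80 to 1.01. Sat1 lost its call only against a 1.5-fold change. Arg2 lost its call over set means (adjusted p = 0.165), with a random block per set (0.0638), against a 1.5-fold change and without wild-type 4 to 6 or null 1, 2 and 5. Srm was never called, and its difference of -0.012 changed sign without wild-type library 1 (0.029), wild-type library 3 (0.031), null library 1 (0.020), null library 3 (0.0068) or wild-type 1 to 3 (0.14), between -0.054 and 0.031 over single libraries left out. The 8013 genes called of all tested (4224 higher, 3789 lower) became 2195 over set means, 4984 with the random block and 1056 against a 1.5-fold change, and 7586 to 7887 with a library left out. The split was 4071 higher and 4176 lower after quantile normalization and 3367 and 4869 after upper quartile scaling, which moved the median of all genes by less than 0.1. The 21 pathway genes called became 13 over set means and 21 to 22 with a library left out. No paired analysis was possible because the labels give no replicate numbers. The depth is unknown, and Oaz1, Amd1 and Amd2 were not tested because of their low listed values.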
